A study of Mus musculus with 32 samples.

Results

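The basal genes Krt5, Krt15 and Aqp3 were followed together with the simple keratins Krt7, Krt8, Krt18 and Krt19 in 32 RNA sequencing libraries from mouse lung organoid cultures. These 7 of the 11818 genes of the count table were chosen by name, as 3 genes of airway basal cells set against 4 keratins of simple epithelium, with earlier results of these data known, so that their changes in Epcam+ cells are given as a description with no p-value. All 7 passed the filter on low counts in every comparison, and like every gene of the table they had at least 1 count in each library.

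Each culture held freshly isolated CD45-/CD31-/Epcam+ lung cells of 1 of 4 naive adult C57BL/6 J mice, mixed at equal numbers with CCL206 cells in Matrigel. CCL206 is 1 fibroblast line from mouse lung, treated with mitomycin C beforehand so that it no longer divided, and every culture, vehicle included, contained it. For 72 h the cultures received vehicle, extracellular vesicles (EVs) or soluble factors (SFs) from MRC5 cells, a human lung fibroblast line, or osteoglycin (OGN, 10 µg/mL), a secreted small leucine-rich proteoglycan. Cells were then resorted with Epcam (CD326) microbeads into an Epcam+ and a CCL206 fraction, which gave 8 groups of 4 libraries, one from each mouse. A library's mouse number names the same animal in all 8 groups, and each treatment was compared with vehicle within mice.

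Keratins form the intermediate filaments of epithelial cells, and each filament pairs a type I keratin with a type II keratin. Krt5, a type II keratin, and Krt15, a type I keratin, mark basal cells, the stem cells of the trachea and larger airways, and Aqp3 is a water and glycerol channel found in basal cell membranes. Krt7 and Krt8 (type II) and Krt18 and Krt19 (type I) build the filaments of simple epithelia such as the alveolar and bronchiolar lining, and Krt8 is also known for rising in alveolar cells in transition between the type 2 and type 1 states.

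The class of a keratin did not follow its place in the genome. Krt5, Krt7, Krt8 and Krt18 lie on chromosome 15 of the mouse, Krt13, Krt15 and Krt19 are neighbours on chromosome 11, and Aqp3 lies on chromosome 4. Stretches from 150 bases before to 10 bases after the start site are shown for the 5 members with a RefSeq promoter entry (build GRCm38.p6), 5′ to 3′ along the gene's own strand, because Krt5 and Aqp3, on different chromosomes, are followed as 1 class, while Krt8 and Krt18 make 1 filament pair. Capitals mark TATAAA and GGGCGG, each searched on both strands.
Krt5 (chr15:101712896-101713055, minus strand): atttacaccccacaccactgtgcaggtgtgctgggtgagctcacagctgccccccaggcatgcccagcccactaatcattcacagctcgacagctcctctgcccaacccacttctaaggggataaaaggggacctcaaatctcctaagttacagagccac
Aqp3 (chr4:41098174-41098333, minus strand): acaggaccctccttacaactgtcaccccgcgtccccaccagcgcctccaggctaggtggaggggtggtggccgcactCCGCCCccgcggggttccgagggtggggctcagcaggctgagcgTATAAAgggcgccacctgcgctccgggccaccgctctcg
Krt7 (chr15:101412253-101412412, plus strand): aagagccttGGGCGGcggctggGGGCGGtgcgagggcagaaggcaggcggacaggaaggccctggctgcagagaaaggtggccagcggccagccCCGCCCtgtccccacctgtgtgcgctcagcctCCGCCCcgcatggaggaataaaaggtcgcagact
Krt8 (chr15:102004333-102004492, minus strand): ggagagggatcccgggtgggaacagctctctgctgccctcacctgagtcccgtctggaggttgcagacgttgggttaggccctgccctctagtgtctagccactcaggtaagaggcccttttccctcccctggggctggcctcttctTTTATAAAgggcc
Krt18 (chr15:102028066-102028225, plus strand): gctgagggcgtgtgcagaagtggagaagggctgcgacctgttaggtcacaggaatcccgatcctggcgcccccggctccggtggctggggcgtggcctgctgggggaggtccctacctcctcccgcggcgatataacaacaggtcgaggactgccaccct

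In windows from 250 bases before to 50 after the start site, Aqp3 held 1 TATAAA, 29 bases before the start, and 1 GGGCGG. Krt7 held 4 GGGCGG and no TATAAA, and Krt8 held 2 TATAAA that overlapped on opposite strands. Neither motif was found in Krt5 or Krt18, and the motif TGANTCA, also searched on both strands, was found in none of the 5 windows. Among 32851 RefSeq promoters of the same length, TATAAA occurred in 13.6%, GGGCGG in 35.7% and TGANTCA in 7.81%. None of the 3 motifs was shared by the windows of Krt5 and Aqp3.

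Totals ran from 1805914 to 17675454 counts per library in the Epcam+ fraction and from 3105312 to 16103497 in the CCL206 fraction. In vehicle cultures Epcam itself had 289 ± 26.3 CPM (the usual depth-scaled read count, on the effective library size; SD, n = 4) in Epcam+ libraries and 11.5 ± 3.45 CPM in CCL206 libraries, whereas the collagen gene Col1a2 had 782 ± 181 and 3475 ± 174 CPM. Each fraction thus held reads of the gene that marks the other. One Epcam+ library stood apart, since Sftpc, the surfactant gene of alveolar type 2 cells, was at 663 CPM in the vehicle library of mouse 1 and between 4790 and 6789 CPM in the other 3 vehicle libraries. The CCL206 library of that same culture held Sftpc at 397% of the Epcam+ level. With each mouse left out in turn, mouse 1 included, the log2 fold changes against vehicle in Epcam+ cells kept to narrow ranges. Those of the basal members stayed between -1.16 and -0.503, and those of the simple keratins between -0.359 and 0.229.

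The simple keratins were the more abundant class in Epcam+ cells. Per transcript length, Krt19 led the vehicle libraries with 1148 ± 35.9 RPKM (the same value per kilobase of transcript; SD, n = 4), followed by Krt8 with 761 ± 30.3, Krt18 with 725 ± 16.5 and Krt7 with 699.9 ± 35.7 RPKM. Krt5 followed with 518 ± 193, Krt15 with 249 ± 97.5 and Aqp3 with 182 ± 72.0 RPKM. The ranges of Krt8, Krt18 and Krt7 overlapped one another, as did those of Krt15 and Aqp3, and the Krt5 range of 234.5 to 667 RPKM reached the lowest Krt7 library (657) but not Krt18, Krt8 or Krt19. This order rests on the transcript lengths used, 4094 nt for Krt7 and 1437 to 1958 nt for the other simple keratins. By CPM, Krt7 led with 2866 ± 146, before Krt19 with 1809 ± 56.6 and Krt8 with 1491 ± 59.3. Krt5 with 1145 ± 427 CPM then had a higher mean than Krt18 with 1041 ± 23.7. Only 4 further keratins were in the table, and all were low, from 92.9 ± 13.7 CPM for Krt80 and 44.4 ± 5.66 for Krt23 to 19.45 ± 6.88 for Krt13 and 1.84 ± 0.754 for Krt10. The 6 member keratins took 98.1% of the reads on the 10 keratin genes in vehicle Epcam+ libraries. Krt14, the usual filament partner of Krt5, was not among these 10 genes, so its level could not be examined. Its absence there does not show that Epcam+ cells lacked it.

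The 3 basal genes were lower with EVs, SFs and OGN than with vehicle in the Epcam+ libraries of every mouse, at between 43.6% and 86.3% of the mouse's own vehicle level. Over all genes, 0.350% were called lower with EVs, 0.0768% with SFs and 1.22% with OGN (edgeR quasi-likelihood test with mouse as a block, adjusted p under 0.05), and all 3 basal genes were among them in each comparison. They were chosen from these contrasts, so nothing is read from that count. In bulk RNA, fewer basal cells and less basal RNA per cell cannot be told apart.

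Krt5 was at 1308, 1475, 1280 and 518 CPM in the vehicle libraries of mice 1 to 4. With EVs it was at 889, 732, 837 and 347 CPM, with SFs at 839.9, 862, 945 and 297 CPM, and with OGN at 831, 955, 1104 and 287 CPM. Each mouse went down under each treatment, but the groups overlapped because mouse 4 began far below the other mice. The log2 fold changes against vehicle were -0.70 ± 0.095 (SE) with EVs, -0.68 ± 0.096 with SFs and -0.58 ± 0.096 with OGN, which is 61.5%, 62.6% and 66.9% of the vehicle level. The smallest step was that of mouse 3 with OGN, to 86.3% of its vehicle level.

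Krt15 was at 514, 593, 367 and 218 CPM with vehicle in mice 1 to 4. It was at 320.4, 301, 240.0 and 150.1 CPM with EVs, at 255, 287, 274 and 95.7 CPM with SFs, and at 233, 258, 174 and 99.3 CPM with OGN. Mouse 4 was again the lowest in each group, and again the groups overlapped. The log2 fold changes were -0.72 ± 0.103 with EVs, -0.91 ± 0.105 with SFs and -1.14 ± 0.106 with OGN. With OGN the 4 mice were nearly alike, at 45.2%, 43.6%, 47.5% and 45.6% of their vehicle levels.

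Among the basal members, Krt15 was also the one in which the treatments stood furthest apart. The log2 difference between OGN and EVs was -0.43 (95% interval -0.64 to -0.21) for Krt15, against 0.12 (-0.08 to 0.32) for Krt5 and -0.03 (-0.20 to 0.14) for Aqp3. Between OGN and SFs it was -0.23 (-0.46 to -0.01) for Krt15, and between EVs and SFs 0.19 (-0.02 to 0.41). Correspondingly, the ratio of Krt5 to Krt15 counts was 2.54, 2.49, 3.49 and 2.38 in mice 1 to 4 with vehicle and 3.57, 3.70, 6.34 and 2.89 with OGN. The basal keratin pool with OGN therefore held a larger part of Krt5 relative to Krt15 in all 4 mice.

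Aqp3 was at 379, 413, 359 and 133 CPM with vehicle in mice 1 to 4. It was at 222, 261, 236 and 90.4 CPM with EVs, at 249, 221, 236 and 85.6 CPM with SFs, and at 207, 243, 274 and 75.6 CPM with OGN. The channel gene followed Krt5 closely, and the ratio of Krt5 to Aqp3 counts stayed between 2.80 and 4.03 in all 16 libraries. Its log2 fold changes were -0.67 ± 0.083 with EVs, -0.69 ± 0.084 with SFs and -0.70 ± 0.084 with OGN. These 3 values lay within 1 SE of each other.

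**Figure D1:**
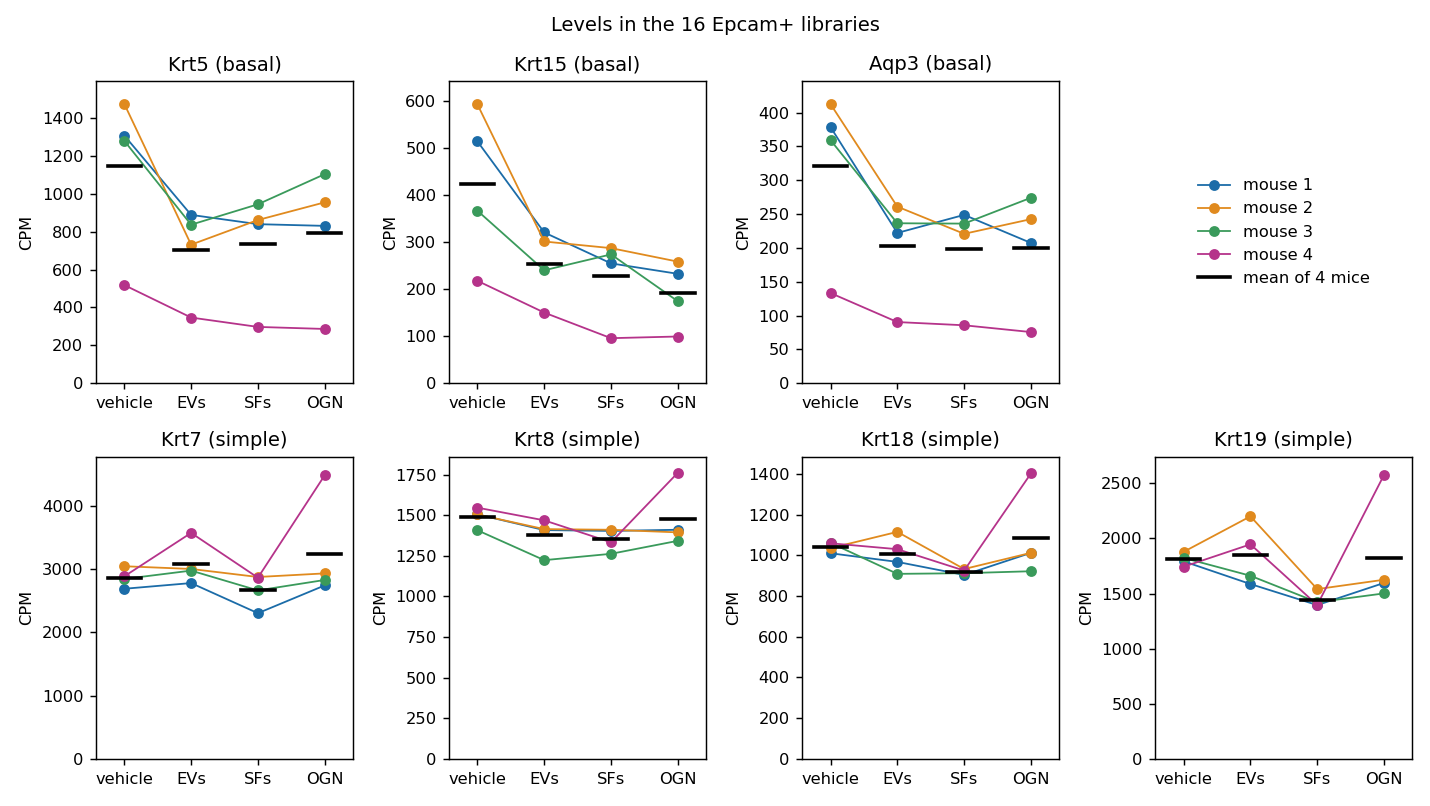
Level of each member in CPM (linear axes from 0) in the 16 Epcam+ libraries by treatment, with 1 line per mouse and a black bar for the mean of 4 mice. The basal genes are below vehicle in every mouse, with mouse 4 (magenta) lowest throughout, whereas the means of the simple keratins stay nearer to vehicle. Krt19 with SFs is at 77.9% to 82.0% of vehicle, and the OGN library of mouse 4 is the highest for each simple keratin.

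The simple keratins stayed nearer to vehicle than the basal genes. None of the 4 was called in either direction in any of the 3 Epcam+ comparisons by edgeR or by DESeq2. By edgeR 0.538%, 0.154% and 1.48% of all genes were called higher with EVs, SFs and OGN, and 0.350%, 0.0768% and 1.22% lower. The simple keratins too were chosen with these contrasts known, so nothing is read from that count. Their log2 fold changes ran from -0.34 for Krt19 with SFs to 0.16 for Krt7 with OGN, against -0.58 to -1.14 for the basal genes. The median over the 4 was -0.036 with EVs, -0.17 with SFs and 0.02 with OGN, and the median absolute change over all genes was between 0.107 and 0.124.

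SFs gave the most even shift, with all 4 simple keratins below vehicle in 4 of 4 mice. Krt19 was at 1792, 1878, 1823 and 1743 CPM with vehicle and at 1395, 1540, 1421 and 1396 CPM with SFs in mice 1 to 4, so that these groups did not overlap. Its log2 fold change with SFs was -0.34 (95% interval -0.59 to -0.10), and all 4 mice were between 77.9% and 82.0% of vehicle. Krt18, the partner of Krt8, was at 86.0% to 90.1% of vehicle with SFs, again with no overlap of the groups (1010 to 1061 CPM with vehicle and 903 to 933 CPM with SFs). With EVs and with OGN the treated libraries overlapped vehicle for all 4 simple keratins. Set against SFs, Krt19 was higher by 0.34 on the log2 scale with EVs (95% interval 0.10 to 0.59) and by 0.34 with OGN (0.09 to 0.58).

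OGN set mouse 4 apart in the simple class. Its OGN library held 4483 CPM of Krt7, 1761 of Krt8, 1402 of Krt18 and 2576 of Krt19, the highest level among the 16 Epcam+ libraries for each, while the other 3 OGN libraries stayed at 82.3% to 102% of their vehicle levels. Epcam itself was at 139% of vehicle in that library and at 83.9% to 107% in the others. Krt5, Krt15 and Aqp3 were at 55.3%, 45.6% and 56.7% of vehicle in the same library.

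**Figure D2:**
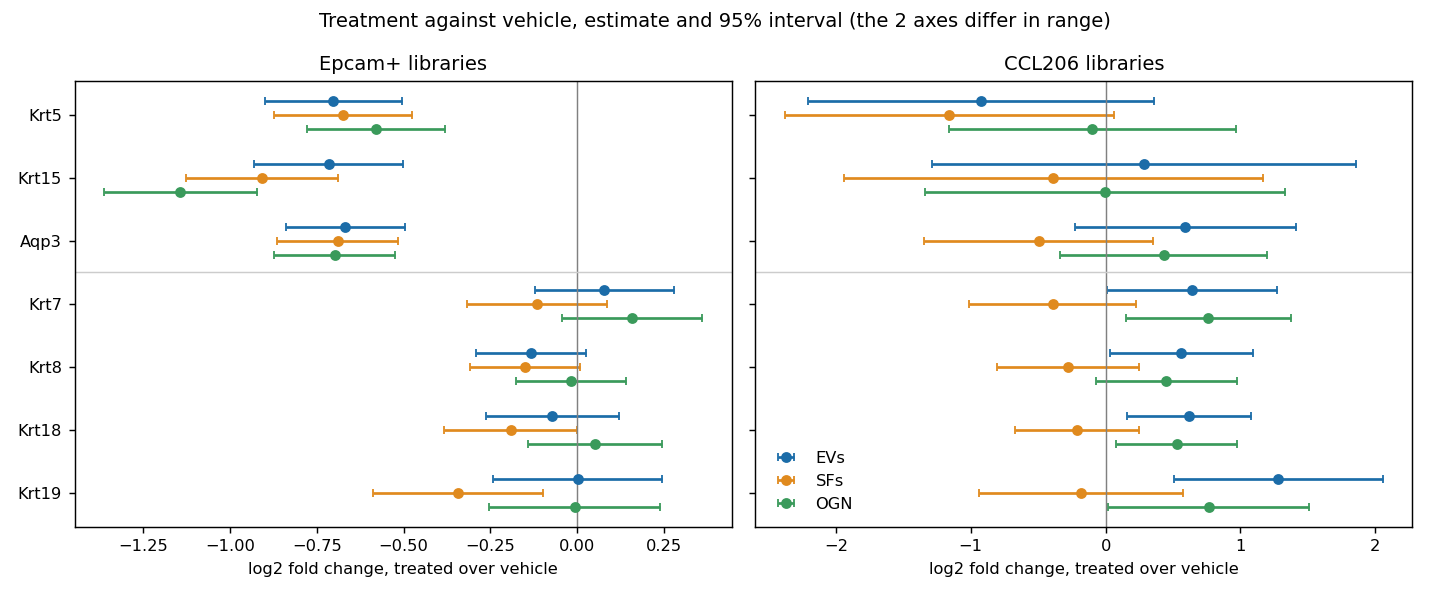
Log2 fold change of each treatment over vehicle with its 95% interval (edgeR, mouse as a block, 4 mice) in Epcam+ libraries (left) and CCL206 libraries (right), whose horizontal ranges differ. In Epcam+ cells the basal estimates run from -1.14 to -0.58 and those of the simple keratins from -0.34 to 0.16. The members were chosen with these contrasts known, so the Epcam+ intervals are a description and not a test. In CCL206 libraries the intervals are several times wider.

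The basal genes varied widely between mice under every treatment. In vehicle Epcam+ libraries the coefficient of variation over mice was 37.3% for Krt5, 39.2% for Krt15 and 39.6% for Aqp3, against 2.28% to 5.10% for the simple keratins. With OGN it was 25.5% for Krt7, 13.0% for Krt8, 19.7% for Krt18 and 27.6% for Krt19, and with EVs 15.2% for Krt19. The median over the 2300 genes with at least 100 CPM was 8.03%, and 0.652% of them varied as much as the least variable basal gene. Mouse 4 had 38.3% of the mean of the other mice for Krt5, 44.3% for Krt15 and 34.8% for Aqp3, whereas the median gene was at 99.3%. Only these 3 of the 2300 genes (0.13%) were at or below 44.3%, a cut set by Krt15 itself. Genes under 100 CPM were not counted there, among them Trp63, whose levels follow. The deficit of the 3 members was present with every treatment, from 29.7% for Krt5 with OGN to 52.3% for Krt15 with EVs.

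**Figure D3:**
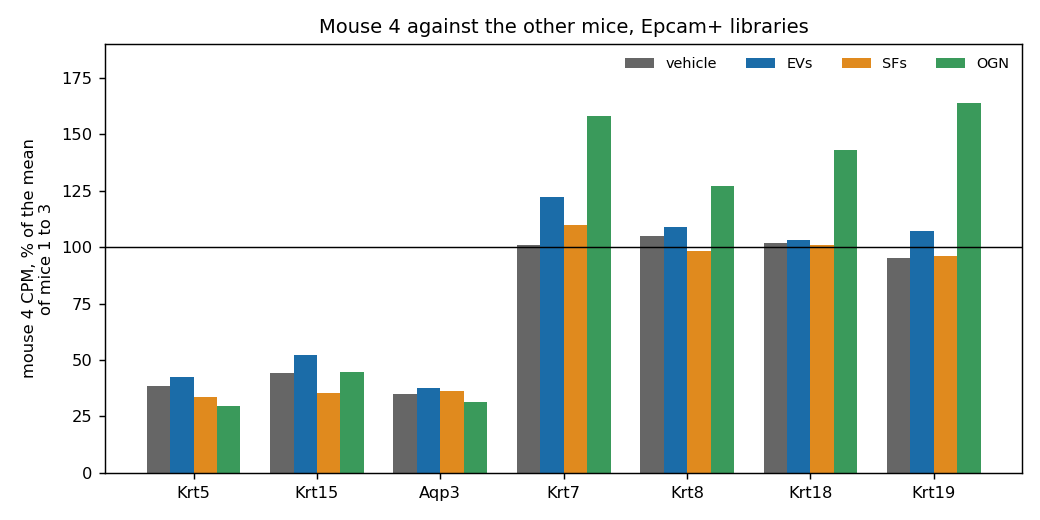
Level of each member in the Epcam+ library of mouse 4 as a percentage of the mean of mice 1 to 3 under the same treatment (bars from 0, line at 100%). The basal genes are between 29.7% and 52.3%, and the simple keratins between 95.2% and 164%.

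Of the 11 other basal genes measured, 10 were lowest in mouse 4 among the vehicle Epcam+ libraries, though S100a14 only slightly (173, 178, 171 and 158 CPM). The share of all genes lowest in mouse 4 was not counted. Being lowest there was not particular to basal genes. The sum of 10 secretory genes was 7020, 6980, 7260 and 5850 CPM, and that of 15 general epithelial genes 3020, 2950, 2850 and 2750 CPM. The sum of 12 alveolar type 2 genes was highest in mouse 4, at 16600 CPM. S100a14, Trp63 and Snai2 were chosen for mention after their values were seen. Trp63, the transcription factor that defines basal cells, was at 66.8, 81.4, 52.6 and 13.9 CPM with vehicle in mice 1 to 4, and Krt13, a keratin of stratified and hillock epithelium, was at 22.3, 18.7, 26.5 and 10.3 CPM. Both were lowest in mouse 4. Snai2, another transcription factor of basal cells, was the exception among the 11, with 13.1, 14.2, 20.2 and 20.9 CPM, and was higher in CCL206 libraries (49.4 ± 10.7 CPM with vehicle). Without the mouse as a block, 0 of 3 basal genes were called in each of the 3 treatment comparisons in Epcam+ cells.

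The keratin reads can be read as a mixture that does not depend on scaling to the library total. Krt5 and Krt15 together took 20.2%, 21.3%, 18.4% and 9.09% of the reads on the 10 keratin genes in the vehicle Epcam+ libraries of mice 1 to 4. The share was 14.9%, 11.6%, 13.5% and 5.73% with EVs, 15.1%, 14.2%, 16% and 5.56% with SFs, and 13.3%, 14.5%, 15.9% and 3.58% with OGN. Each treated culture was thus below the vehicle culture of its own mouse. Within the simple class the ratio of Krt8 to Krt18 counts, the 2 partners of 1 filament, stayed between 1.26 and 1.55 in all 16 libraries.

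**Figure D4:**
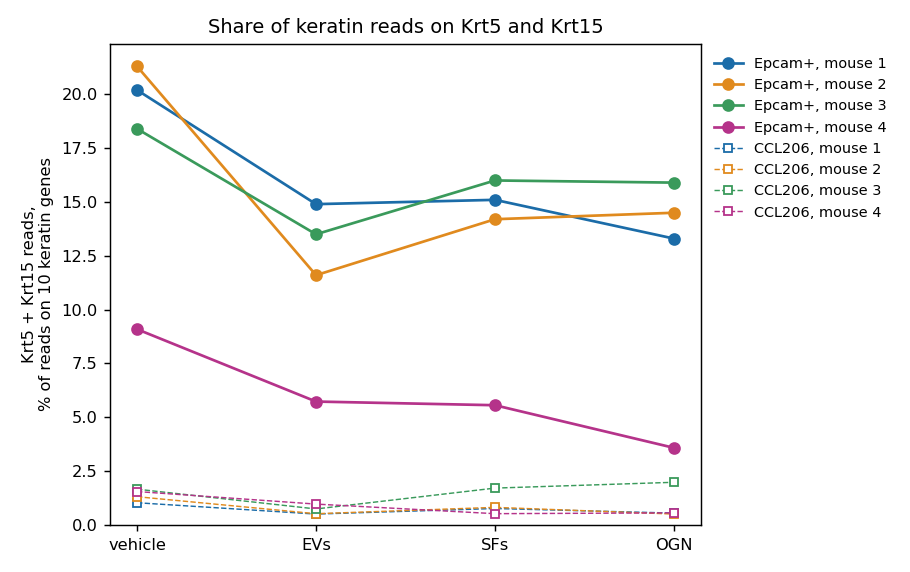
Reads on Krt5 and Krt15 as a percentage of reads on the 10 keratin genes of the table, by treatment, with 1 line per mouse for Epcam+ (filled, solid) and CCL206 (open, dashed) libraries. The Epcam+ share lies between 9.09% and 21.3% with vehicle and between 3.58% and 16% with treatment, lower in every mouse, and the CCL206 share is at most 1.98%.

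Across the 16 Epcam+ libraries, which share mice and vehicle cultures, log2 CPM of Krt5 and Aqp3 had a Pearson r of 0.983, Krt15 and Aqp3 0.897 and Krt5 and Krt15 0.878. Krt18 and Krt19 had 0.921 and Krt8 and Krt18 0.866. Between the classes r was negative in all 12 pairs, from -0.58 to -0.05, and Krt15 and its genomic neighbour Krt19 were at -0.05. The negative sign rested on mouse 4. Without it, over 12 libraries, all 12 pairs were positive, from 0.21 to 0.688, while within the classes Krt5 and Aqp3 were at 0.890, Krt15 and Aqp3 at 0.769, Krt5 and Krt15 at 0.657, Krt18 and Krt19 at 0.884 and Krt8 and Krt18 at 0.628. Krt8 and Krt19 were at 0.747 with mouse 4 and 0.455 without it, and Krt7 and Krt8 at 0.653 and 0.0752, so that likeness within the classes rested partly on mouse 4 as well.

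Among 9988 genes with a mean log2 CPM of at least 3 in Epcam+ libraries, the 5 with the highest r to the mean of the basal members included Itgb4 (0.942), Jag2 (0.940), Cotl1 (0.937) and Fbln1 (0.935). Itgb4 is the integrin subunit of hemidesmosomes and Jag2 a Notch ligand. Jag2 was at 101, 112, 91.0 and 40.7 CPM and Fbln1, a matrix glycoprotein, at 33.3, 35.7, 30.5 and 8.65 CPM with vehicle, so that the likeness lay largely in mouse 4. Without mouse 4, none of these 4 genes was among the first 5. None of the 4 was called against vehicle with any treatment by edgeR, and the largest change was that of Fbln1 with EVs, -0.60 with an adjusted p of 0.0619. DESeq2 called Fbln1 with EVs and Itgb4 with SFs. The genes most like the mean of the simple keratins were Hnrnpm (0.916), Lsm4 (0.908), Adsl (0.899), Spint2 (0.891) and Psmd7 (0.889), and again none of these 5 stayed among the first 5 without mouse 4.

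Other basal genes leaned the same way by less and did not pass the test. Of 20 other genes of airway basal cells, 11 were in the table, and 0 were called with EVs, SFs or OGN by edgeR, while 5, 7 and 4 had an unadjusted p under 0.05. DESeq2 called 1 of them with EVs (Col17a1), 1 with SFs (Itgb4) and 0 with OGN. Their log2 fold changes were below 0 for 10 of 11 with EVs, 11 of 11 with SFs and 7 of 11 with OGN, and their medians were -0.18, -0.25 and -0.10, against -0.0031, -2.65e-05 and -0.0031 over all genes. Trp63 had -0.40 ± 0.168 with EVs, -0.39 ± 0.175 with SFs and -0.36 ± 0.171 with OGN. Col17a1, the transmembrane collagen of hemidesmosomes, had -0.41 ± 0.112 with EVs and an adjusted p of 0.0895 by edgeR. Of the 10 genes of hemidesmosomes and laminin-332, 9 were in the table and 0 were called by edgeR, with 2, 2 and 3 at an unadjusted p under 0.05 and the same 2 genes called by DESeq2.

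Among the other keratins Krt13 came nearest to the basal members in size, with log2 fold changes of -0.61 ± 0.182 with EVs, -0.62 ± 0.189 with SFs and -0.61 ± 0.188 with OGN. None of these passed the threshold, with adjusted p of 0.144, 0.338 and 0.0959 by edgeR. Krt80, Krt23 and Krt10 were not called either, and DESeq2 called none of the 4. Of the other aquaporins, Aqp5, the channel of alveolar type 1 cells and airway glands, had log2 fold changes of -0.15 to 0.06 and was not called. Aqp1, a channel of endothelium and fibroblasts, rose with EVs (0.72 ± 0.170, adjusted p = 0.0446 by edgeR) and fell with OGN (-0.85 ± 0.186, adjusted p = 0.0109 by edgeR).

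Genes tied to the keratin network were counted beside the members. Of 11 measured genes that link keratin filaments to junctions, only Dsp, the desmosomal plaque protein, was called, lower with EVs (-0.38 ± 0.082, adjusted p = 0.0267 by edgeR). Of 7 measured genes of cornified epithelium, Tgm1, which cross-links the cornified envelope, rose with EVs (0.43 ± 0.101, adjusted p = 0.0419 by edgeR) and with OGN (0.92 ± 0.101, adjusted p = 3.96e-06), and Ivl, its substrate involucrin, rose with OGN (0.84 ± 0.222, adjusted p = 0.0426). DESeq2 also called Gsta4 with EVs and Sprr1a and Gsta4 with SFs, and called the same 2 genes with OGN. The 2 of 7 called with OGN, and the 3 higher and 1 lower of the 15 that follow, stand beside 1.48% of all genes higher and 1.22% lower. Of 15 genes of the Krt8-high transitional state other than keratins, 0 were called with EVs or SFs by edgeR, with 5 each at an unadjusted p under 0.05, and DESeq2 called Ndrg1 with EVs and Itgb6 with SFs. With OGN Ndrg1 (0.63 ± 0.092), Itgb6 (0.52 ± 0.106) and Plaur (0.42 ± 0.096) rose and Cdkn1a fell (-0.33 ± 0.085) by edgeR, while Krt8 stood at -0.02 ± 0.077.

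Markers of other cells moved beside the basal genes. The counts that follow stand beside 0.350%, 0.0768% and 1.22% of all genes called lower with EVs, SFs and OGN, and 0.538%, 0.154% and 1.48% called higher. The lists were chosen with earlier results of these data known, so the counts are a description. Of 10 measured airway secretory genes, 5 were lower with EVs, 2 with SFs and 4 with OGN, and Hp was higher with OGN. Scgb1a1, the club cell secretoglobin, fell with EVs, SFs and OGN, with log2 fold changes of -0.93 ± 0.141, -0.71 ± 0.141 and -0.96 ± 0.142. Bpifa1, a secreted protein of airway lining fluid, fell as well, with changes of -0.75 ± 0.107, -0.59 ± 0.107 and -0.91 ± 0.107. The summed level of the 10 secretory genes was 5850 to 7260 CPM with vehicle, 4510 to 5230 with EVs, 4790 to 5760 with SFs and 3980 to 5650 with OGN. Of 10 measured fibroblast genes, 6 rose with EVs, 0 were called with SFs (6 at an unadjusted p under 0.05, 0 by DESeq2) and with OGN Dcn was the only one called by edgeR, while DESeq2 called Dcn and Lum. With EVs DESeq2 called 8, of which Fbln1 fell (-0.60 by edgeR, not called there). Fbln1 was also the only 1 of the 10 that was higher in Epcam+ than in CCL206 libraries with vehicle (3.19 ± 0.360). The fibroblast sum was 2560 to 3700 CPM with vehicle, 3670 to 4380 with EVs, 2990 to 4040 with SFs and 2320 to 2960 with OGN. With OGN, where the fibroblast sum was 2320 to 2960 CPM, the basal genes were at 45.3% to 66.9% of vehicle. Of 12 alveolar type 2 genes, 1 was lower with EVs, 1 higher with SFs and 3 higher with OGN, of 10 alveolar type 1 genes 3 were lower with OGN, and of 5 ciliated cell genes none was called (2, 1 and 1 at an unadjusted p under 0.05, 0 by DESeq2). Of 15 general epithelial genes 0 were called with any treatment (2, 2 and 0 at an unadjusted p under 0.05, 0 by DESeq2). Of the markers of mesothelium 2 were in the table and 0 were called, of those of white blood cells 2, of which Lyz2 rose with SFs and OGN, and of those of endothelium 1, which was not called. The part of these cells in the basal result was not tested.

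All 7 members were higher in the Epcam+ than in the CCL206 fraction of the vehicle cultures, where 35.3% of all genes were higher in Epcam+. In CCL206 libraries Krt5 was at 3.59, 2.78, 3.72 and 3.36 CPM, Krt15 at 2.22, 1.67, 2.79 and 0.495 CPM and Aqp3 at 4.23, 4.03, 4.47 and 1.68 CPM in mice 1 to 4, from 5 to 48 counts each. The simple keratins were between 39.98 CPM for Krt18 in mouse 4 and 175 CPM for Krt8 in mouse 1. The log2 fold changes of Epcam+ over CCL206 were 8.36 ± 0.360 for Krt5, 7.84 ± 0.360 for Krt15 and 6.45 ± 0.281 for Aqp3, and 4.76 ± 0.281 for Krt7, 4.72 ± 0.318 for Krt19, 4.19 ± 0.213 for Krt18 and 3.75 ± 0.235 for Krt8. The adjusted p was at most 6.5e-14 by edgeR for each member, and no library of one fraction reached the other. Because the fractions were sorted on Epcam and the members are epithelial genes, this direction was given in advance. All 15 general epithelial genes were called higher in Epcam+ too, so nothing is read from the calls.

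The steps between the fractions differed between the 3 basal members and the 4 simple keratins. As a share of the Epcam+ library of the same vehicle culture, the CCL206 level was 0.351 ± 0.204% for Krt5, 0.425 ± 0.240% for Krt15 and 1.15 ± 0.133% for Aqp3 (SD, n = 4). It was 3.76 ± 1.53% for Krt7, 3.84 ± 1.41% for Krt19, 5.59 ± 2.05% for Krt18 and 7.70 ± 2.97% for Krt8. Epcam itself was at 3.97 ± 1.14%, Cdh1, the epithelial cadherin, at 10.3 ± 4.25%, and the median of 15 general epithelial genes at 6.95 ± 2.32%. The 3 basal members were thus below every simple keratin, and below the median of the general epithelial genes, in all 4 mice. Other basal genes had smaller steps, with a median log2 fold change of 3.57 over the 11 measured and at most 5.23 ± 0.182 (Itgb4). Of these 11, 9 were higher in Epcam+ and 2 lower. The 10 measured airway secretory genes had a median of 4.72 and reached 7.68 ± 0.438 (Bpifa1). The 12 alveolar type 2 genes had a smaller median step of 1.77. Among them, Sftpc in the CCL206 libraries was at 397%, 35.0%, 36.8% and 14.6% of the Epcam+ level in mice 1 to 4. The share found in the CCL206 fraction thus differed widely between epithelial genes. Mouse 1 had the highest share for each simple keratin, for Epcam and for Cdh1, and mouse 4 the lowest.

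**Figure D5:**
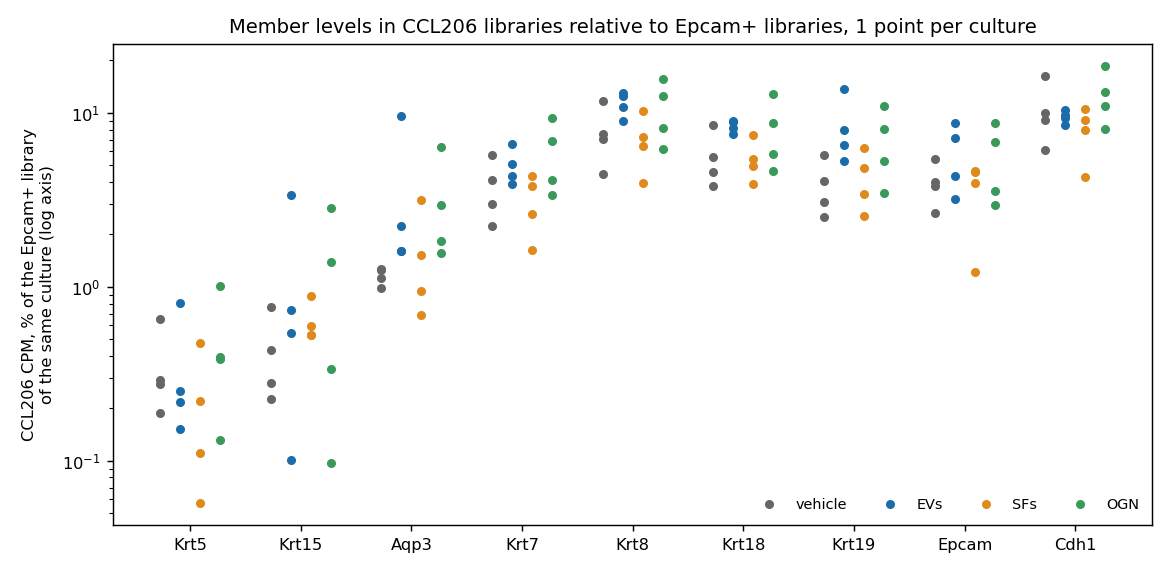
CPM in each CCL206 library as a percentage of CPM in the Epcam+ library of the same culture (log axis), with 1 point per culture and colour for treatment, for the 7 members and for Epcam and Cdh1. Krt5 and Krt15 lie mostly below 1%, Aqp3 between 0.688% and 9.57%, and the simple keratins between 1.63% and 15.6%, beside Epcam at 1.22% to 8.73%.

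In CCL206 libraries the simple keratins were higher with EVs in the libraries of mice 2 and 4. The members were chosen with earlier results of these libraries known too, so p-values here are not independent of the choice. Krt19 was at 103, 57.6, 73.4 and 44.1 CPM with vehicle and at 83.5, 175, 108 and 266 CPM with EVs in mice 1 to 4. Its log2 fold change was 1.28 ± 0.363 (adjusted p = 0.0155 by edgeR), and 3 of 4 mice were higher. Krt18 was at 85.7, 47.5, 58.6 and 39.98 CPM with vehicle and at 72.8, 99.9, 74.2 and 91.3 CPM with EVs, with a log2 fold change of 0.62 ± 0.216 (adjusted p = 0.0365 by edgeR), again higher in 3 of 4 mice. Krt7 (0.64 ± 0.296) and Krt8 (0.56 ± 0.249) were not called. These 2 of 4 simple keratins stood in a comparison with 19.8% of all genes called higher and 16.2% lower.

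Both calls rested on mice 2 and 4. Without mouse 2, Krt18 was at 0.45 and Krt19 at 1.15 (adjusted p = 0.225 and 0.128 by edgeR), without mouse 4 at 0.41 and 0.70 (adjusted p = 0.256 and 0.127), and without both at 0.05 and 0.14 (adjusted p = 0.927 and 0.741). The EV libraries of those 2 mice also carried a trend on transcript length, with a Spearman rho of -0.588 and -0.627 across genes between length and the deviation from vehicle, against -0.369 to 0.193 in the other 14 CCL206 libraries. Transcripts of up to 2000 nt were raised by a median of 0.649 and 0.853 on the log2 scale in those 2 libraries, and those of Krt18, Krt19 and Krt8 are 1437, 1576 and 1958 nt long. The canonical Krt7 transcript is 4094 nt long, and Krt7 was at 166% and 367% of vehicle in the EV libraries of mice 2 and 4. With each library's trend taken out, Krt18 was at 0.17 (adjusted p = 0.426 by edgeR), while 1 of the 4 simple keratins, Krt19, was still called. Both alternatives were chosen after seeing the data, and the part of the length trend in the calls was not tested further.

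The 3 basal genes were not called with EVs in CCL206 libraries, with log2 fold changes of -0.93 ± 0.604 for Krt5, 0.29 ± 0.740 for Krt15 and 0.59 ± 0.385 for Aqp3. None had an unadjusted p under 0.05, and DESeq2 called none. Their counts there were 1 to 31 per library, and a change of the size seen in Epcam+ cells was not detectable at this depth. Krt10, a keratin of differentiated stratified epithelium, was the only other keratin called, higher with EVs (1.15 ± 0.386, adjusted p = 0.0317 by edgeR).

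With SFs, 0.0599% of all genes were called higher in CCL206 libraries and 0% lower, and 0 of the 7 members by edgeR or by DESeq2, with 0 at an unadjusted p under 0.05. All 4 simple keratins were lower in 4 of 4 mice, from 64.8% of vehicle for Krt7 in mouse 1 to 97.2% for Krt18 in mouse 2, with log2 fold changes of -0.39 ± 0.291 for Krt7, -0.28 ± 0.247 for Krt8, -0.21 ± 0.216 for Krt18 and -0.18 ± 0.354 for Krt19. In the fit of only the 8 libraries compared, Krt7 and Krt8 were called lower (adjusted p = 0.00309 and 0.0132 by edgeR). All 15 general epithelial genes were also below 0 there, with a median of -0.39, and so were all 12 alveolar type 2 genes, with a median of -0.33.

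With OGN, 2.70% of all genes were called higher and 1.86% lower in CCL206 libraries, and 0 of the 7 members by edgeR or by DESeq2, with 3 at an unadjusted p under 0.05 (Krt7, Krt18 and Krt19). Krt7 was at 155, 91.3, 116 and 64.1 CPM with vehicle and at 188, 119.9, 264 and 152 CPM with OGN, and Krt19 at 129, 85.9, 165 and 89.5 CPM with OGN, so that both, and Krt18, were higher in 4 of 4 mice. The log2 fold changes were 0.76 ± 0.288 for Krt7, 0.76 ± 0.349 for Krt19, 0.53 ± 0.211 for Krt18 and 0.45 ± 0.244 for Krt8, with adjusted p from 0.186 to 0.405 by edgeR. Without the EV-treated libraries, which share the estimate of spread in this fit, all 4 simple keratins were called higher with nearly the same changes, 0.79, 0.79, 0.54 and 0.46 (adjusted p = 0.000192, 3.32e-05, 0.00449 and 0.0147 by edgeR). Epcam itself was at 126%, 100%, 183% and 155% of vehicle in mice 1 to 4 of these libraries, and all 15 general epithelial genes were above 0, with a median of 0.41. The part of carried-over epithelial RNA in these changes was not tested.

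The basal genes were near the limit of counting in the CCL206 fraction. With OGN Krt5 was at 3.17, 1.26, 11.2 and 1.13 CPM and Krt15 at 0.227, 0.866, 4.93 and 1.38 CPM in mice 1 to 4, and mouse 3 was the highest for both. Among the OGN libraries it also had the highest share of the Epcam+ level for all 4 simple keratins, from 9.33% for Krt7 to 15.6% for Krt8, and for Epcam, at 8.71%. No basal gene was called with OGN, with log2 fold changes of -0.10 ± 0.50 for Krt5, -0.0039 ± 0.628 for Krt15 and 0.43 ± 0.360 for Aqp3.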

How the data were processed

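RNA from 32 libraries (8 groups of 4 mice) was measured by sequencing. The authors trimmed reads with Trimmomatic (0.30 per the processing notes), aligned them to the mouse genome and deposited raw counts per gene, which had at least 1 count in every library for all 11818 genes, so that a gene absent from any library is not in the table. The study's own differential tests used DESeq2 (1.34.0) with pairing by mouse. All values here were computed from the deposited counts. Depth-scaled counts (CPM) were scaled by TMM over all 32 libraries, and RPKM used GENCODE M39 canonical transcript lengths, which matched 98.3% of genes.

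Each treatment was compared with vehicle within a fraction, over its 16 libraries, by the edgeR (4.0.16, R 4.3.3) quasi-likelihood F test with filterByExpr, mouse as a block and Benjamini-Hochberg adjustment at 0.05. The fractions were compared over all 32 libraries. Same-numbered libraries come from the same mouse, and their deviations from the group means correlated at a mean r of 0.0909 to 0.226, against -0.0706 to -0.0308 between mice. Both tools were checked on simulated counts. There DESeq2 made slightly more false calls between fractions than the limit first set, which was then raised for it, while edgeR stayed below it. No replicate pair of a group was as close as sampling noise (lowest chi-square per degree of freedom 2.98 over 48 pairs). Errors after ± are SDs over 4 mice for levels and SEs for log2 fold changes.

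The members and gene lists were chosen with earlier results of these data known, so members have no p-value in the Epcam+ treatment comparisons. Named genes are the 7 members, Epcam, the other keratins and aquaporins, up to 4 genes with the smallest p past the threshold in each list and comparison, and the 5 genes most like each class mean, of which 1 is not reported here. Other genes named were chosen after their values were seen. Alternatives were no block, DESeq2 (1.42.0), RLE size factors, no filter, at least 10 counts in every library, only the 8 libraries compared, each mouse left out, no EV-treated libraries, and CPM on plain totals. For CCL206, 2 alternatives, without mice 2 and 4 and with a trend on transcript length taken out, were added after seeing the data. The depth of 1805914 to 17675454 counts limits genes at a few counts.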

Additional observations from a re-analysis of the deposited data

Results flagged for a closer look

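In 7 of the 56 groups of 4 libraries examined (7 members in 8 groups), 1 library lay so far from the other 3 that its gap to the nearest took a larger part of the group's whole range than Dixon's 95% critical value for 4 samples. Chance alone gives this in about 1 of 20 groups, and the groups share libraries. All 7 far libraries were from mouse 4. In Epcam+ cells with SFs, Krt5 (297 CPM) and Krt15 (95.7 CPM) were the lowest. In Epcam+ cells with OGN, Krt7 (4480 CPM), Krt8 (1760 CPM) and Krt19 (2580 CPM) were the highest. In CCL206 libraries, Krt15 with SFs (0.847 CPM) and Aqp3 with vehicle (1.68 CPM) were the lowest, both from few counts.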

How the results depend on the processing

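In Epcam+ cells the fold changes of the 3 basal genes stayed below 0 in 90 of 90 values under the alternatives, and those of the 4 simple keratins moved by less than the spread between mice in 120 of 120. Without the mouse as a block, 0 of 3 basal genes were called with EVs, SFs and OGN, and the block changed no other count of members called in Epcam+ cells or between fractions. With only the 8 libraries compared, 1 simple keratin was called with SFs. Between fractions every member kept its direction and call, in 27 of 27 values for the basal genes and 40 of 40 for the simple keratins. A minimum of 10 counts in every library left no basal gene to test in CCL206 libraries or between fractions.

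The number of genes called moved more than the members. In Epcam+ cells with EVs, 104 became 9 without the block, 201 by DESeq2 and 17 to 156 with a mouse left out. With SFs, 27 became 6 without the block, 53 by DESeq2, 42 with only the 8 libraries compared and 11 to 32 with a mouse left out. With OGN, 316 became 198 without the block, 185 with only the 8 libraries and 144 to 268 with a mouse left out. In CCL206 libraries with EVs, 4207 became 387 with only the 8 libraries, 143 without mice 2 and 4, 2755 with the length trend taken out and 19 to 4556 with a mouse left out (19 without mouse 2, 711 without mouse 4). With SFs, 7 became 32 by DESeq2, 302 with only the 8 libraries, 108 without the EV-treated libraries and 2 to 5 with a mouse left out. With OGN, 533 became 863 by DESeq2, 1370 with only the 8 libraries, 1770 without the EV-treated libraries, 852 with the length trend taken out and 236 to 411 with a mouse left out. Between fractions, 8211 became 7419 to 7814.

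In CCL206 libraries with EVs, the 2 simple keratins called became 1 without the block, 0 with only the 8 libraries, 0 without mice 2 and 4, 1 with the length trend taken out and 0 to 4 with a mouse left out (4 without mouse 1, 0 without mouse 2 or 4). Krt18 alone was lost without the block (0.55, adjusted p = 0.0869 by edgeR). With SFs, 2 simple keratins were called with only the 8 libraries. With OGN, 3 were called with only the 8 libraries, 4 without the EV-treated libraries, 2 without mice 2 and 4 and 1 with the length trend taken out.

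In Epcam+ cells, simple keratin changes near 0 changed sign with a mouse left out: with OGN, Krt7 ranged from -0.0176 to 0.229, Krt8 from -0.097 to 0.0156, Krt18 from -0.0843 to 0.14 and Krt19 from -0.225 to 0.0877, and with EVs Krt19 from -0.0756 to 0.0612. Krt19 also changed sign with EVs by DESeq2 and RLE size factors, and with OGN without the block. In CCL206 libraries the reversed directions were of members that were not called. With EVs, without mice 2 and 4, Krt15 was at -1.64, Aqp3 at -0.24, Krt7 at -0.19 and Krt8 at -0.0939, and Krt15 was also at -0.90 without mouse 4 and at -0.0935 with the length trend taken out. With OGN, Krt5 was at 0.38 without the block, 0.19 without mouse 2, 0.31 without mouse 4 and 0.86 without mice 2 and 4. Krt15 with OGN was at 0.20 without the block, 0.0084 with RLE size factors, 0.50 without mouse 1, 0.23 without mouse 2 and 0.0565 without the EV-treated libraries. With a mouse left out, Krt15 ranged from -0.902 to 0.854 with EVs and from -0.749 to 0.503 with OGN, and Krt5 from -0.935 to 0.305 with OGN. Basal counts as low as 1 limit these values, and the cause of the other shifts was not tested.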
